A study of Mus musculus with 6 samples.

Results

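The nuclear genes for the subunits of the mitochondrial respiratory chain were examined in mouse bone marrow-derived basophils (BMBAs) treated with IL-3 or with PBS. Genes were chosen by symbol alone, as the entries of the count table named like subunits of complex I (Nduf genes), complex II (Sdha to Sdhd), complex III (Uqcr genes and Cyc1), complex IV (Cox4 to Cox8 genes) and complex V, the ATP synthase (Atp5 genes). The rule found 85 of the 37043 symbols in the table, with 37 genes for complex I, 4 for complex II, 9 for complex III, 18 for complex IV and 17 for complex V. No expression value was used in the choice.

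BMBAs are basophils grown in culture from bone marrow cells. The marrow came from wild-type C57BL/6J mice, spent 7 days in culture at 0.3 ng/mL of a cytokine, and was enriched for basophils with beads against CD49b. The methods name that cytokine as IL-3. All 6 cultures shared this preparation, and 3 of them then received PBS and 3 received 10 ng/mL IL-3 for 6 h before bulk RNA-seq. The cells were enriched by a single surface marker, and the PBS cells had been grown with IL-3 as well.

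Complexes I to IV pass electrons from NADH and succinate to oxygen, and complexes I, III and IV pump protons across the inner mitochondrial membrane as they do so. Complex V uses the proton gradient to make ATP. Most subunits are encoded in the nucleus and imported, while a small set is encoded by mitochondrial DNA, so that complexes I, III, IV and V are built from products of both genomes. Basophils are short-lived granulocytes of allergic and anti-parasite responses, and IL-3 supports their growth and activates them.

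Library totals ranged from 10537540 to 13999287 counts. The 85 genes took 0.834% to 0.853% of all counts in the PBS libraries and 0.762% to 0.772% in the IL-3 libraries. Levels below are in CPM, which puts the counts of each library on one scale through TMM factors taken from the bulk of the genes. A gene counts as called where edgeR's quasi-likelihood test, adjusted over all 16675 genes tested, gave an adjusted p under 0.05. Scaling by library totals in place of TMM moved the median log2 fold change over all genes tested from 0.00 to -0.17, so every fold change below stands relative to the bulk of the genes. The basophil markers were well detected in all libraries: 5 of 7 were called higher with IL-3 and 1 lower, and their summed level ranged from 10751 to 11845 CPM with PBS and from 15892 to 16111 CPM with IL-3. Markers of monocytes and macrophages were abundant too, with 6 of 8 called lower and 2 higher, and their summed level ranged from 11641 to 12569 CPM with PBS and from 6083 to 6700 CPM with IL-3. Of the mast cell markers 4 of 6 were called higher, of the neutrophil markers 3 of 6 higher and 1 lower, of the eosinophil markers 1 of 5 higher and 3 lower, of the erythroid markers 2 of 4 lower, and of the NK cell markers only Nkg7 passed the filter, higher with IL-3. Alas2 and Gzma were at 0 counts in all libraries. The part of these marker shifts in the results below was not tested, and in bulk RNA fewer cells of a type and less RNA per cell cannot be told apart.

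Under TMM scaling, 54 of the 80 nuclear respiratory chain genes tested were not called. The fold changes of the set were small, and the balance of their directions depended on the scaling. Of the 80 genes tested, 12 were called higher and 14 lower with IL-3 under TMM scaling, and 1 higher and 38 lower under scaling by library totals. With library totals, 10.2% of all genes tested were called higher and 30.2% lower. The 26 genes called with TMM were 32.5% of those tested, against 38.2% of all genes tested. Of all genes tested, 18% were called higher and 20.2% lower with TMM. The libraries of the groups did not overlap for 36 of the 80 genes, and the share over all genes tested was 48.2%. Log2 fold changes had a median size of 0.13 in the 80 genes and of 0.29 in all genes tested. Among genes with a mean of at least 10 CPM, where 50.1% of 9146 genes were called, 26 of 79 respiratory genes (32.9%) were called, and the median size was 0.25 for all of them and 0.13 for the respiratory genes.

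**Figure D1:**
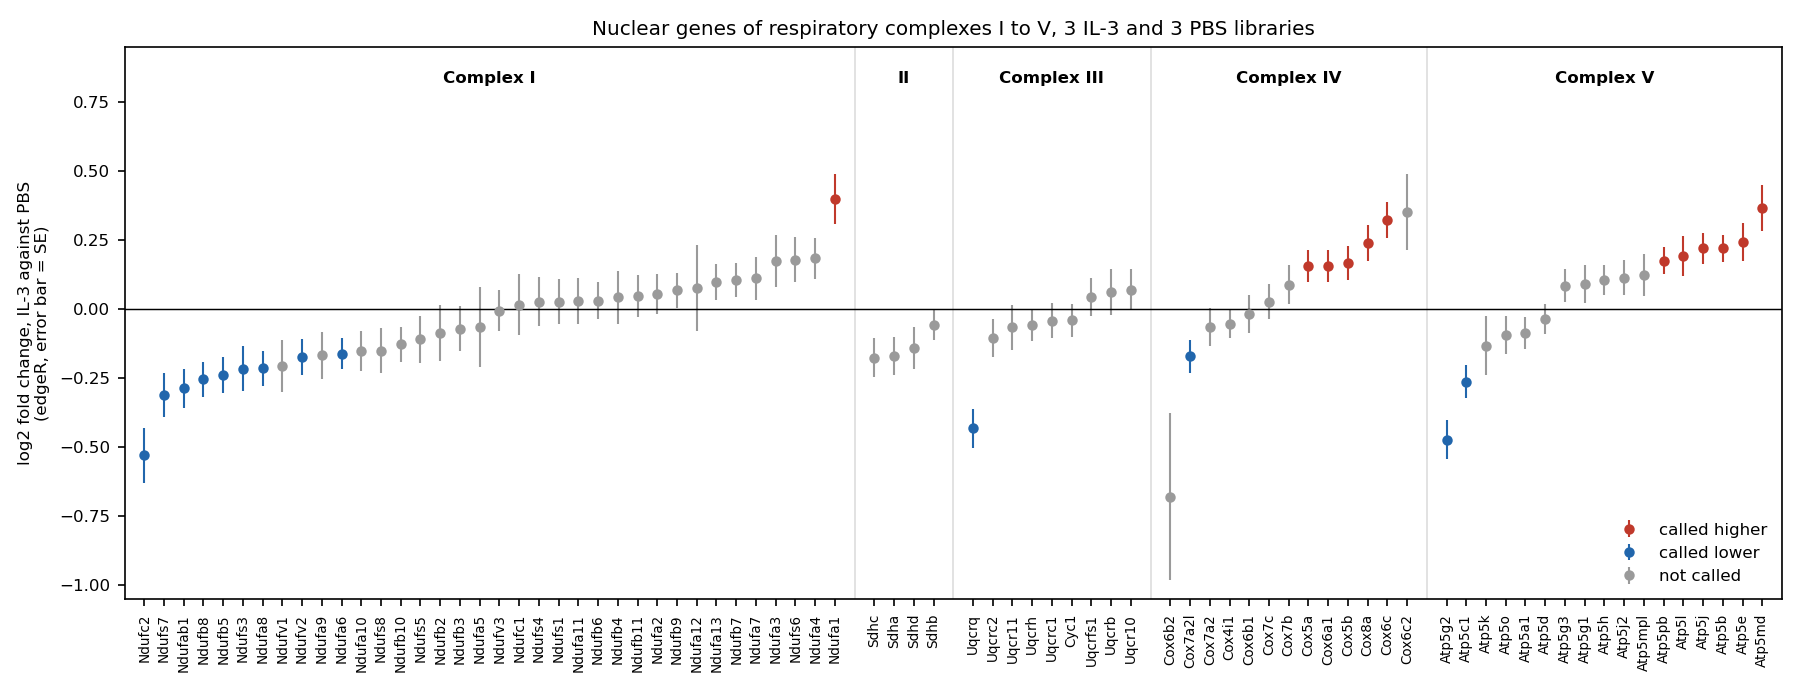
Log2 fold change of IL-3 against PBS (vertical axis, point with SE) for 79 of the 80 tested nuclear respiratory chain genes, ordered within complexes I to V, from 3 libraries per group with TMM scaling. Red points are the 12 genes called higher and blue points 13 genes called lower, of which 9 belong to complex I. With scaling by library totals, 11 of the 12 red points lose their call.

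The spread of the calls over the complexes depended on the scaling too. Of all genes tested, 18% were called higher and 20.2% lower with TMM, and 10.2% and 30.2% with library totals. With TMM, complex I had 1 gene called higher and 10 lower of 37 tested, complex III had 1 lower of 9, complex IV had 5 higher and 1 lower of 13, and complex V had 6 higher and 2 lower of 17. With library totals, 17 genes of complex I were called lower and 1 higher, and no gene of the other complexes was called higher, while 4 of complex II, 6 of complex III, 5 of complex IV and 6 of complex V were called lower. With TMM the median log2 fold change was -0.06 in complex I, -0.16 in complex II and -0.04 in complex III, and it was 0.09 in complex IV and 0.11 in complex V. With library totals the medians of complexes IV and V turned to -0.07 and -0.06, and those of complexes I, II and III were -0.23, -0.32 and -0.20. Single libraries moved these TMM medians: that of complex IV was 0.041 without IL-3 replicate 3, 0.138 without IL-3 replicate 2 and 0.050 without PBS replicate 1. Leaving out PBS replicate 2 gave complex I a median of -0.017, leaving out PBS replicate 1 gave -0.032 and leaving out IL-3 replicate 1 gave -0.041, and the median of complex III was -0.026 without IL-3 replicate 3. Differences between complexes were not tested.

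Fold changes differed with transcript length. Across the 80 genes, Pearson's r between the log2 fold change and the log2 transcript length was -0.25 and Spearman's rho was -0.34, while over 16412 tested genes with a length they were -0.03 and -0.03. These are descriptions across genes of the same libraries, and genes are not independent replicates. The 27 genes with the shortest transcripts (231 to 571 nt) had a median of 0.11, with 7 called higher and 2 lower. The 26 genes of middle length (572 to 971 nt) had a median of -0.03, and the 27 with the longest transcripts (1001 to 3171 nt) had a median of -0.10, with 2 called higher and 7 lower. After a correction for trends with GC content and length over all genes, the medians of these groups were 0.05, -0.02 and -0.12. The median transcript length was 2065.5 nt in complex II, 763 nt in complex I, 680 nt in complex V, 618 nt in complex IV and 547 nt in complex III. Complex II, with the longest transcripts, had the lowest median log2 fold change (-0.16), and complex III, with the shortest, had one of -0.04. The part of length in the differences between complexes was not tested. With the correction, 10 genes were called higher and 12 lower, against 18.2% and 19.6% of all genes, and the median of complex IV was 0.00.

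**Figure D2:**
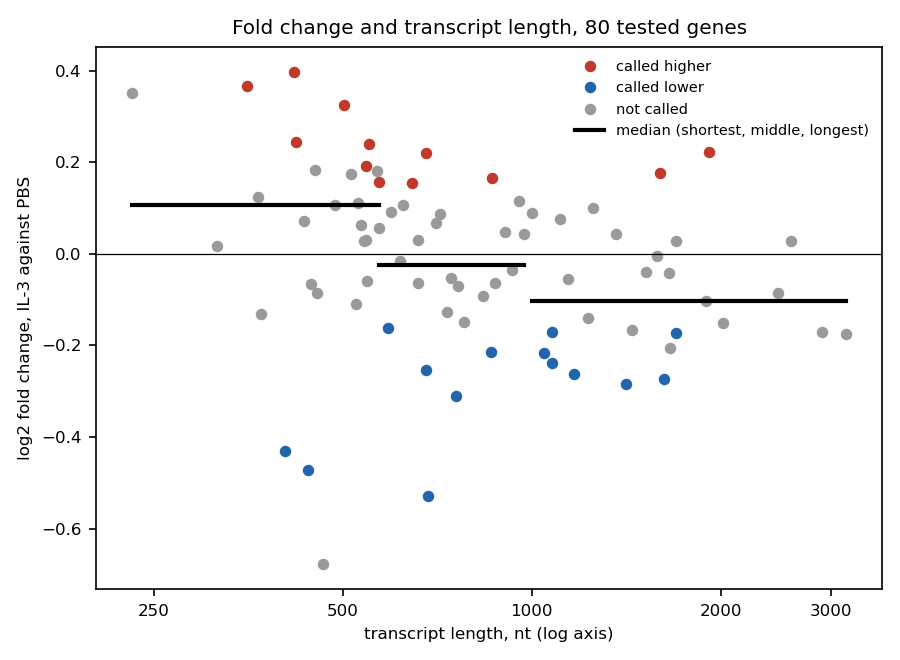
Log2 fold change of IL-3 against PBS (vertical axis) against transcript length in nt (horizontal log axis) for the 80 tested genes, coloured by call, with black lines for the medians of the 27 shortest, 26 middle and 27 longest transcripts. The medians go from 0.11 in the shortest to -0.10 in the longest.

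In complex I, which oxidises NADH, the genes called lower included 4 of the 7 nuclear core subunits, the subunits that carry the cofactors and the path of the electrons. The median log2 fold change was -0.20 for these 7 and 0.02 for the 30 accessory genes, of which 1 was called higher and 6 lower. The split into core and accessory genes was chosen after the values were seen. Ndufs7, which holds the iron-sulfur cluster next to the ubiquinone site, was measured at 76.1, 69.6 and 70.9 CPM in the PBS libraries and at 57.8, 64.4 and 52.7 CPM in the IL-3 libraries. Its log2 fold change was -0.31 ± 0.08 (SE, n = 3 per group; edgeR adjusted p = 0.0050), and every IL-3 library lay below every PBS library. With the GC and length correction it missed the threshold (adjusted p = 0.052). The smaller falls of Ndufs3 (-0.22 ± 0.08, adjusted p = 0.048) and Ndufv2 (-0.17 ± 0.07, adjusted p = 0.049) lay at the edge of the threshold. Of the core genes that were not called, Ndufv1, the subunit that binds NADH and flavin, had a log2 fold change of -0.20 ± 0.10 (adjusted p = 0.10), Ndufs8 one of -0.15 ± 0.08 (adjusted p = 0.16) and Ndufs1 one of 0.03 ± 0.08 (adjusted p = 0.82). With library totals Ndufv1 and Ndufs8 were called lower (adjusted p = 0.0080 and 0.0075).

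Among the accessory subunits of complex I, the largest called fall was that of Ndufc2, a subunit of the membrane arm (chromosome 7, 97400003 to 97407802, plus strand, GENCODE M21 on GRCm38). Its levels were 48.8, 43.8 and 39.3 CPM in the PBS libraries and 27.3, 31.2 and 32.7 CPM in the IL-3 libraries. The log2 fold change was -0.53 ± 0.10 (adjusted p = 0.00048), and the groups did not overlap. Ndufab1, the mitochondrial acyl carrier protein, which also serves fatty acid synthesis, went from 69.2, 62.6 and 62.5 CPM to 54.4, 51.5 and 53.7 CPM, a log2 fold change of -0.29 ± 0.07 (adjusted p = 0.0045). Ndufb8, another subunit of the membrane arm, went from 99.0, 92.9 and 100.3 CPM to 86.6, 80.5 and 78.3 CPM, a log2 fold change of -0.25 ± 0.06 (adjusted p = 0.0050). In both genes each IL-3 library was below each PBS library. Ndufb5 (-0.24 ± 0.07, adjusted p = 0.0098), Ndufa8 (-0.21 ± 0.06, adjusted p = 0.015) and Ndufa6 (-0.16 ± 0.06, adjusted p = 0.035) were also called lower. Exons of Mrpl47 on the other strand cover 12.3% of the exon bases of Ndufb5, and the sources used here do not settle to which of them reads there were assigned.

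Ndufa1 was the single complex I gene called higher. It encodes a small membrane-arm subunit needed for assembly of the complex and lies on chromosome X (37187588 to 37191163, minus strand). Its levels were 42.7, 38.3 and 35.6 CPM with PBS and 46.0, 53.2 and 54.3 CPM with IL-3. The log2 fold change of 0.40 ± 0.09 (adjusted p = 0.0024) was the highest of all 80 genes, the groups did not overlap, and with library totals it was 0.24 and still called. Ndufa4, grouped here by its symbol although its protein is now placed in complex IV, stood at 105.8, 101.6 and 110.7 CPM with PBS and at 106.7, 120.5 and 133.6 CPM with IL-3. It was not called (0.18 ± 0.07, adjusted p = 0.065), and IL-3 replicate 1 lay within the range of the PBS libraries. Per length of the shortest principal transcript, Ndufa4 had the highest level of complex I in the PBS libraries, while with the longest principal transcript of each gene Ndufa6 ranked above it.

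**Figure D3:**
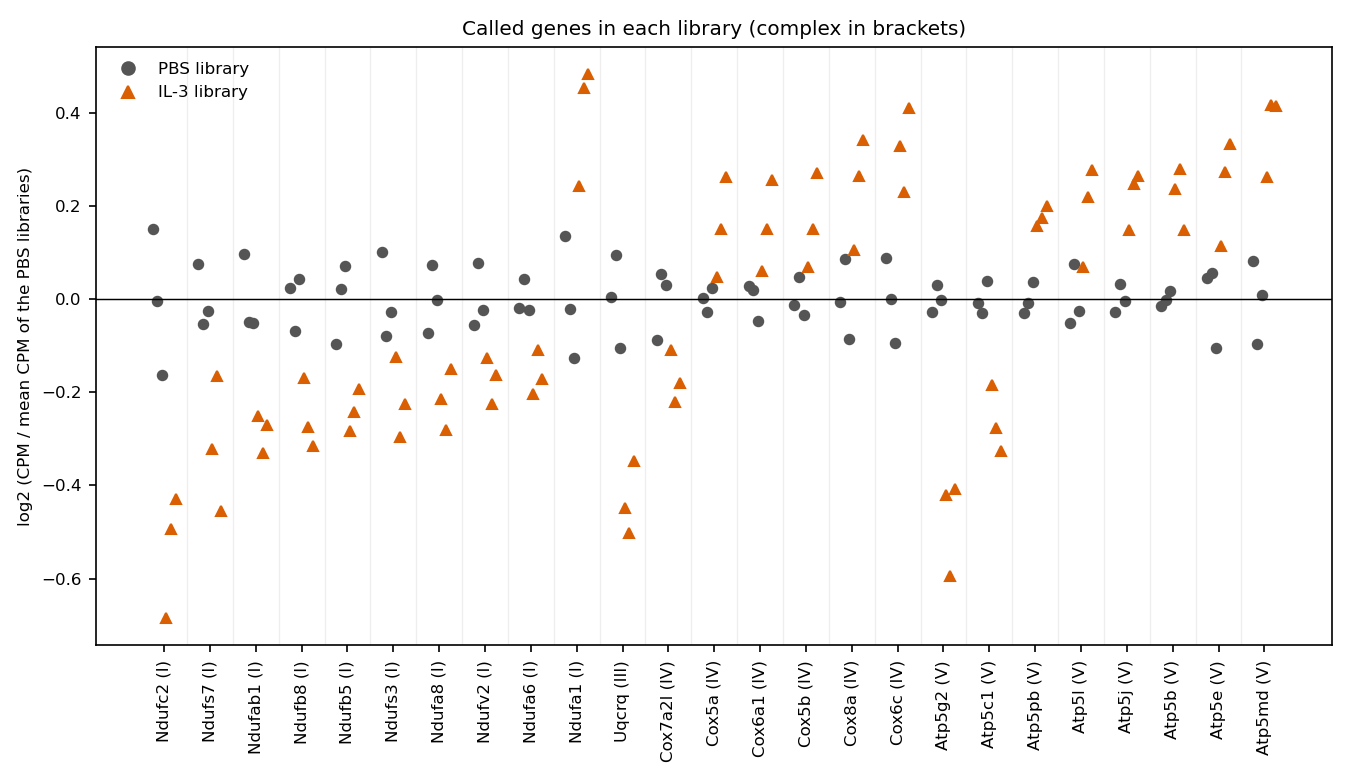
Log2 of the CPM in each library over the mean CPM of the PBS libraries (vertical axis) for 25 of the 26 called genes, with grey circles for the 3 PBS and orange triangles for the 3 IL-3 libraries, ordered by complex. In 24 of the 25 genes drawn the groups do not overlap. In Atp5l, IL-3 replicate 1 at 66.1 CPM lies below PBS replicate 2 at 66.5 CPM.

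None of the 4 complex II genes, which encode succinate dehydrogenase, was called in edgeR, in DESeq2 or in limma-voom, although 2 had an unadjusted p below 0.05 in each of the 3 tools. In edgeR with library totals all 4 were called lower (adjusted p = 0.0016 to 0.0079). Their log2 fold changes were -0.17 ± 0.07 for Sdhc (adjusted p = 0.062), -0.17 ± 0.07 for Sdha (adjusted p = 0.063), -0.14 ± 0.08 for Sdhd (adjusted p = 0.17) and -0.06 ± 0.06 for Sdhb (adjusted p = 0.49). Sdha, the flavoprotein, stood at 93.5, 83.5 and 85.1 CPM with PBS and at 80.5, 80.3 and 72.4 CPM with IL-3. Sdhb, the iron-sulfur subunit and the complex II gene with the highest level per length, stood at 112.5, 114.2 and 112.4 CPM with PBS and at 110.3, 104.9 and 111.2 CPM with IL-3. Together with Sdhc they were the 3 genes of this complex with every IL-3 library below every PBS library. The summed level of the 4 genes was 344 ± 9.1 CPM (SD, n = 3) with PBS and 315 ± 4.4 CPM with IL-3.

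Complex III carries electrons from ubiquinol to cytochrome c. Of its 9 genes, only Uqcrq was called in edgeR, DESeq2 and limma-voom with their own scaling, while in edgeR with library totals 6 of the 9 were called lower, among them Uqcrh and Cyc1 (adjusted p = 0.0074 and 0.019). Uqcrq encodes a small subunit near the ubiquinone-binding part of the complex (chromosome 11, 53427922 to 53430831, minus strand). Its levels were 84.5, 90.04 and 78.4 CPM with PBS and 61.8, 59.5 and 66.2 CPM with IL-3, and the groups did not overlap. The log2 fold change was -0.43 ± 0.07 (adjusted p = 0.00016), while the other 8 genes ranged from -0.10 to 0.07. Uqcrh, the hinge protein and the complex III gene with the highest level per length, stood at 180.8, 167.6 and 184.4 CPM with PBS and at 164.9, 174.0 and 172.8 CPM with IL-3, with groups that overlapped (-0.06 ± 0.06, adjusted p = 0.47).

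Complex IV, cytochrome c oxidase, has its catalytic centre in subunits encoded by mitochondrial DNA, and the nuclear genes encode the subunits around it. Of these, Cox6c, Cox8a, Cox5b, Cox6a1 and Cox5a were called higher, all of which lost the call with library totals. Cox6c (chromosome 15, 35925886 to 35938246, minus strand) was measured at 132.0, 124.2 and 116.5 CPM with PBS and at 156.1, 145.7 and 165.1 CPM with IL-3. Its log2 fold change was 0.32 ± 0.07 (adjusted p = 0.00094), and 0.16 with library totals (adjusted p = 0.055). Cox8a stood at 219.9, 234.6 and 208.2 CPM with PBS and at 237.6, 265.2 and 279.7 CPM with IL-3, a log2 fold change of 0.24 ± 0.07 (adjusted p = 0.0086), and 0.08 with library totals. In these 2 genes each IL-3 library was above each PBS library. Cox6a1 stood at 255.6, 254.2 and 242.8 CPM with PBS and at 261.5, 278.1 and 299.5 CPM with IL-3, a log2 fold change of 0.16 ± 0.06 (adjusted p = 0.042). Cox5b (0.17 ± 0.06, adjusted p = 0.044) and Cox5a (0.16 ± 0.06, adjusted p = 0.047) had changes of the same size, and with library totals the values were -0.01 for Cox6a1, 0.00 for Cox5b and -0.01 for Cox5a.

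Cox7a2l was the single complex IV gene called lower. It stood at 161.7, 178.4 and 175.6 CPM with PBS and at 159.2, 147.4 and 151.6 CPM with IL-3, with no overlap (-0.17 ± 0.06, adjusted p = 0.033). The testis-specific isoform Cox6b2 had a log2 fold change of -0.68 ± 0.30 and was not called (adjusted p = 0.090) at levels of 3.9, 6.6 and 3.6 CPM with PBS and 1.6, 3.6 and 3.5 CPM with IL-3. The value shrank to -0.36 when PBS replicate 2 was left out and to -0.41 when IL-3 replicate 1 was left out, and the gene was called lower with library totals and with no filter on low counts (adjusted p = 0.032 and 0.031). Cox6c2 (0.35 ± 0.14, adjusted p = 0.055) shares 52.7% of its 50-base stretches with other genes, above all with Cox6c. The split of reads between them is uncertain.

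Several complex IV subunits exist as pairs of a widely expressed isoform and an isoform of muscle, heart, lung or testis, and in each pair here the widely expressed form was the abundant one. Cox4i1 had the highest level per length of complex IV, and its 441.1, 411.5 and 403.3 CPM with PBS against 399.0, 400.7 and 411.9 CPM with IL-3 overlapped (-0.05 ± 0.05, adjusted p = 0.47). Its partner Cox4i2, the hypoxia-responsive lung isoform, had 0 counts in the PBS libraries and at most 0.20 CPM in an IL-3 library. Cox6a2, Cox7a1, Cox7b2 and Cox8b, like Cox4i2, were below the filter, and none of these 5 genes reached more than 6 counts in a library. A count of 0 allows up to 3 counts, or 0.233 to 0.296 CPM depending on the library, and that limit covers counting error only. Cox8b had 0 counts in all 6 libraries. Of the widely expressed partners, Cox6b1 (-0.02 ± 0.07, adjusted p = 0.88), Cox7a2 (-0.06 ± 0.07, adjusted p = 0.51) and Cox7b (0.09 ± 0.07, adjusted p = 0.36) were not called, and their groups overlapped. Cox6b1 stood at 99.5, 103.5 and 96.9 CPM with PBS and at 89.1, 103.7 and 103.5 CPM with IL-3. Cox7a2 stood at 81.6, 82.4 and 81.0 CPM with PBS and at 71.4, 77.5 and 84.9 CPM with IL-3, and Cox7b at 63.2, 70.5 and 66.4 CPM against 71.2, 66.0 and 75.6 CPM. With library totals Cox4i1, Cox6b1 and Cox7a2 were called lower (-0.21, -0.18 and -0.23, adjusted p = 0.0030, 0.042 and 0.013).

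In complex V, genes of the catalytic head, the stalks and the membrane part were called in both directions. Atp5b, the catalytic beta subunit, was measured at 480.5, 485.3 and 491.4 CPM with PBS and at 571.7, 589.5 and 538.1 CPM with IL-3. Its log2 fold change was 0.22 ± 0.05 (adjusted p = 0.0019), all IL-3 libraries were above all PBS libraries, and with library totals the value was 0.06 and not called. Atp5c1, the gamma subunit that turns inside the head, moved the opposite way: it stood at 139.7, 137.6 and 144.4 CPM with PBS and at 123.7, 116.1 and 112.1 CPM with IL-3, a log2 fold change of -0.26 ± 0.06 (adjusted p = 0.0022) with no overlap. Atp5e, the epsilon subunit of the central stalk, was called higher (0.24 ± 0.07, adjusted p = 0.010), and the alpha and delta genes Atp5a1 (-0.09 ± 0.06, adjusted p = 0.26) and Atp5d (-0.03 ± 0.05, adjusted p = 0.67) were not called. With library totals Atp5a1 and Atp5d were called lower (-0.25 and -0.20, adjusted p = 0.0059 and 0.013). With TMM, 2 of the 5 genes of the head and central stalk were called higher and 1 lower, a grouping chosen after the values were seen.

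Of the peripheral stalk genes, Atp5j and Atp5pb were called higher, with log2 fold changes of 0.22 ± 0.06 (adjusted p = 0.0058) and 0.18 ± 0.05 (adjusted p = 0.0099). Atp5j stood at 130.0, 135.5 and 132.1 CPM with PBS and at 146.9, 157.2 and 159.0 CPM with IL-3, and its call was lost with library totals and with the GC and length correction (0.08, adjusted p = 0.32). Its exons overlap those of Gabpa on the other strand over 12.7% of their bases, and Gabpa itself was not called (0.07 ± 0.09, adjusted p = 0.60). Atp5md, a small membrane subunit that helps complex V to form dimers (chromosome 19, 47083464 to 47090647, minus strand), had the largest rise of the complex. Its levels were 38.4, 33.9 and 36.5 CPM with PBS and 43.4, 48.4 and 48.3 CPM with IL-3, a log2 fold change of 0.37 ± 0.08 (adjusted p = 0.0023), and 0.20 with library totals (adjusted p = 0.064). Atp5l, another small membrane subunit, was called at the edge of the threshold (0.19 ± 0.07, adjusted p = 0.045).

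The c ring of complex V is built from a single mature protein that is encoded by the genes Atp5g1, Atp5g2 and Atp5g3. Only Atp5g2 was called, at 77.2, 80.3 and 78.6 CPM with PBS and 58.8, 52.1 and 59.3 CPM with IL-3, a log2 fold change of -0.47 ± 0.07 (adjusted p = 5.1e-05) with no overlap of the groups. Atp5g3, which had the highest level per length of all 85 genes, stood at 396.4, 376.9 and 438.5 CPM with PBS and at 403.7, 446.7 and 435.8 CPM with IL-3 (0.09 ± 0.06, adjusted p = 0.29). Atp5g1 was not called either (0.09 ± 0.07, adjusted p = 0.32). Atp5g2 supplied 14.4% ± 0.9 (SD, n = 3) of the counts of the 3 genes with PBS and 10.3% ± 1.0 with IL-3, while their summed level was 547 ± 30 CPM with PBS and 554 ± 17 CPM with IL-3. Of the 50-base stretches of Atp5g2, 38.3% also occur in other genes, above all in Gm10175, which held 3494 counts in the 6 libraries, so the split of reads between them is uncertain.

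The summed level of the 85 genes was 8008 ± 28 CPM with PBS and 8127 ± 159 CPM with IL-3. By complex, the sum was 2281 ± 12 CPM with PBS and 2193 ± 66 CPM with IL-3 in complex I, 822 ± 11 and 786 ± 14 CPM in complex III, 1905 ± 39 and 2019 ± 98 CPM in complex IV, and 2657 ± 39 and 2814 ± 51 CPM in complex V. The groups did not overlap in complexes I, II, III and V, and in complex IV IL-3 replicate 1 at 1931 CPM lay below PBS replicate 2 at 1932 CPM. The direction of the sums depended on the scaling. As a share of all counts of a library, all 5 complexes were lower in each IL-3 library than in each PBS library: the share of complex IV went from 0.201% ± 0.002 (SD, n = 3) to 0.190% ± 0.005, and that of complex V from 0.280% ± 0.007 to 0.265% ± 0.008. These sums weigh the abundant genes most.

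**Figure D4:**
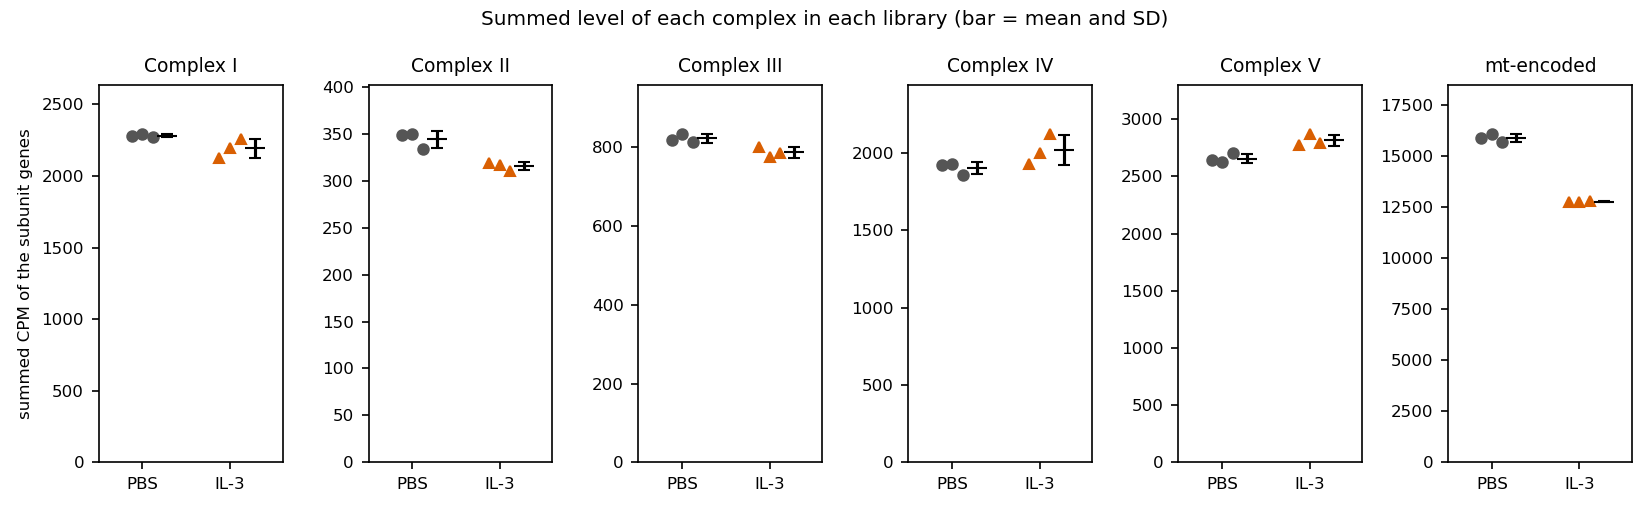
Summed CPM of the nuclear genes of each complex and, in the last panel, of the 13 mitochondrially encoded subunits (vertical axes from 0, a different scale in each panel) in the 3 PBS (circles) and 3 IL-3 (triangles) libraries, with mean and SD as a black bar. The nuclear sums shift by little between the groups under TMM scaling, as a share of all counts every nuclear sum is lower with IL-3, and the mitochondrially encoded sum goes from 15900 to 12781 CPM.

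Of the 13 subunits encoded by mitochondrial DNA, 12 were called lower, with a median log2 fold change of -0.30. mt-Co1, mt-Co2 and mt-Co3, which form the core of complex IV, had log2 fold changes of -0.30 ± 0.03, -0.38 ± 0.04 and -0.39 ± 0.04 (adjusted p = 3.6e-06, 4.0e-06 and 8.8e-07), beside a median of 0.09 for the nuclear genes of the same complex. Other RNA of the mitochondria moved with them. All mt- symbols together took 3.55% ± 0.03 (SD, n = 3) of the counts with PBS and 2.03% ± 0.04 with IL-3, of which the 13 subunits took 1.68% ± 0.02 and 1.20% ± 0.02 and the mitochondrial ribosomal RNAs 1.87% ± 0.02 and 0.824% ± 0.041. The symbol CT010467.1, annotated as a nuclear-genome ribosomal RNA, took 13.4% to 15.1% of the counts with PBS and 14.4% to 16.5% with IL-3 and was called higher on the TMM scale (0.27 ± 0.05, adjusted p = 0.0012). The part of these shifts in the results, and the difference between the nuclear and the mitochondrial sets, were not tested.

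The partners of the complexes showed larger changes in several cases. Cycs, the cytochrome c that carries electrons from complex III to complex IV, stood at 42.5, 43.2 and 37.3 CPM with PBS and at 63.0, 72.7 and 65.2 CPM with IL-3, a log2 fold change of 0.71 ± 0.08 (adjusted p = 4.4e-06). Atpif1, the inhibitor of ATP hydrolysis by complex V, stood at 100.0, 102.0 and 94.6 CPM with PBS and at 56.9, 59.0 and 69.3 CPM with IL-3, a log2 fold change of -0.68 ± 0.08 (adjusted p = 3.0e-06). In neither gene did the groups overlap, and both values were larger than that of any called subunit gene. Of the 14 carrier and coenzyme Q synthesis genes, 42.9% were called with TMM, against 38.2% of all genes tested. With library totals, 10.2% of all genes tested were called higher and 30.2% lower. Among the carriers and coenzyme Q synthesis genes 2 of 14 were called higher and 4 lower (1 and 5 with library totals), with Coq8a at -1.91 ± 0.29 (adjusted p = 7.0e-05) and Coq7, the hydroxylase of coenzyme Q synthesis, at -0.93 ± 0.18 (adjusted p = 0.00065).

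Of 52 assembly factors, 9 were called higher and 7 lower, or 30.8% of them, against 38.2% of all genes tested. The fold changes of the 52 factors had a median of 0.01 on the log2 scale. With library totals 3 were called higher and 12 lower, against 10.2% and 30.2% of all genes tested. Ttc19, an assembly factor of complex III, had the largest value, at 1.54 ± 0.11 (adjusted p = 2.1e-08). Sdhaf4, which helps to assemble complex II, fell by 0.96 on the log2 scale (SE 0.14, adjusted p = 6.6e-05), and Cmc2, a factor of complex IV, fell by 0.72 (SE 0.10, adjusted p = 3.5e-05). Of 18 enzymes of the tricarboxylic acid cycle and pyruvate dehydrogenase, 3 were called higher and 3 lower (2 and 8 with library totals), among them Dlst (0.41 ± 0.06, adjusted p = 7.0e-05), Idh3a (0.53 ± 0.13, adjusted p = 0.0033) and Idh2 (-0.75 ± 0.11, adjusted p = 3.5e-05). Of 8 tested genes for the exchange of ATP, ADP and phosphate and for uncoupling, 2 were called higher and 3 lower (1 and 4 with library totals). The ADP/ATP carrier Slc25a4 (-0.58 ± 0.08, adjusted p = 2.8e-05) and the outer membrane channel Vdac2 (-0.39 ± 0.06, adjusted p = 4.8e-05) fell. With TMM, 33.3% of the 18 enzymes and 62.5% of the 8 exchange and uncoupling genes were called, against 38.2% of all genes tested.

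Of 17 tested regulators of respiratory genes, 5 were called higher and 0 lower in edgeR, in DESeq2 and in limma-voom. At an unadjusted p below 0.05, 2 were lower in edgeR, 1 in limma-voom and 0 in DESeq2. With library totals in edgeR, 4 were called higher and 5 lower. The 5 calls with TMM in edgeR were 29.4% of the 17 regulators, against 38.2% of all genes tested. Over all genes tested, 18% were called higher and 20.2% lower with TMM, and 10.2% and 30.2% with library totals. Myc, a transcription factor of cell growth, stood at 3.4, 3.5 and 4.0 CPM with PBS and at 23.5, 26.8 and 18.7 CPM with IL-3, a log2 fold change of 2.67 ± 0.17 (adjusted p = 3.5e-09). Nrf1, which binds the promoters of many respiratory chain genes, rose by 0.50 ± 0.09 on the log2 scale (adjusted p = 0.00034), and Pprc1, a coactivator of the PGC family, rose by 0.78 ± 0.15 (adjusted p = 0.00057). The other two called regulators were Gabpb1 (0.56 ± 0.11, adjusted p = 0.00078) and Gabpb2 (0.27 ± 0.06, adjusted p = 0.0017), which encode beta subunits of the ETS factor GABP, and in both every IL-3 library was above every PBS library. Gabpa, for the DNA-binding subunit of GABP, was not called, nor was Yy1 (-0.04 ± 0.06, adjusted p = 0.66), for another factor that binds such promoters.

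Promoter sequence was searched for the letters that these factors are known to bind, in RefSeq windows on GRCm38.p6 from 250 bases before to 50 bases after the start, on both strands. The motif of Nrf1 (GCGCATGC) was in the windows of 10 of the 69 members with a window, or 14.5%, against 3.77% of the windows of all 17651 symbols in the table that had one. The ETS motif read by Gabpa (CCGGAAG) was in 17 (24.6%, against 12.5%), and the Yy1 motif (ATGGCGG) in 9 (13.0%, against 5.63%). Any of the 3 was in 30 of the 69 members (43.5%), against 19.6% of all windows, and in 8 of the 11 called-higher members with a window and in 6 of the 12 called lower. By motif, ETS was in 6 of the 11 and 1 of the 12, Nrf1 in 2 and 3, and Yy1 in 3 and 2, which are small counts that were not tested. A match is a description of letters and not a bound site. The windows of all symbols were not limited to genes that passed the filter, and the sets were not matched for expression. The 3 called genes with such a match before the start and clear of annotated exons are shown to place these motifs, with the motif in capitals, each read 5′ to 3′ on the minus strand of the gene.
Atp5e (called higher, chr2:174464157-174464243, ETS motif): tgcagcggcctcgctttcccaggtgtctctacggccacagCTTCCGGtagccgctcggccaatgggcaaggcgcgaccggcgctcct
Atp5l (called higher, chr9:44920908-44920992, Nrf1 motif then ETS motif): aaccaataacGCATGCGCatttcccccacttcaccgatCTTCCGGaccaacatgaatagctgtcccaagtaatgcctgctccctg
Ndufa6 (called lower, chr15:82354327-82354414, Nrf1 motif): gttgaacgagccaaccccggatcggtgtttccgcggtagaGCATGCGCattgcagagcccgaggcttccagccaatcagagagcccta
The motif begins 102 bases before the RefSeq start in Atp5e, 240 and 212 bases in Atp5l, and 83 bases in Ndufa6. All 4 matches were found as the reverse complement of the motif. Over the 15 alternative settings described below, the call of Atp5l was lost in 8, that of Ndufa6 in 6 and that of Atp5e in 3.

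The calls differed in how firmly they held. Over 15 alternative settings of scaling, filter, test, correction and libraries, 9 of the 26 calls were kept in every setting, among them the rise of Ndufa1 and the falls of Atp5c1, Atp5g2, Ndufab1, Ndufb5, Ndufb8, Ndufc2 and Uqcrq. With library totals all 14 falls were kept and 1 of the 12 rises, and 38 members in all were called lower and 1 higher, against 30.2% and 10.2% of all genes. At an adjusted p below 0.01, 7 were called higher and 9 lower, against 13% and 14.3% of all genes. In a test against a fold of 1.5 (glmTreat in edgeR), 4.25% of all genes were called higher and 5.3% lower but none of the 80 members in either direction, and none of them had an unadjusted p below 0.05 in that test.

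**Figure D5:**
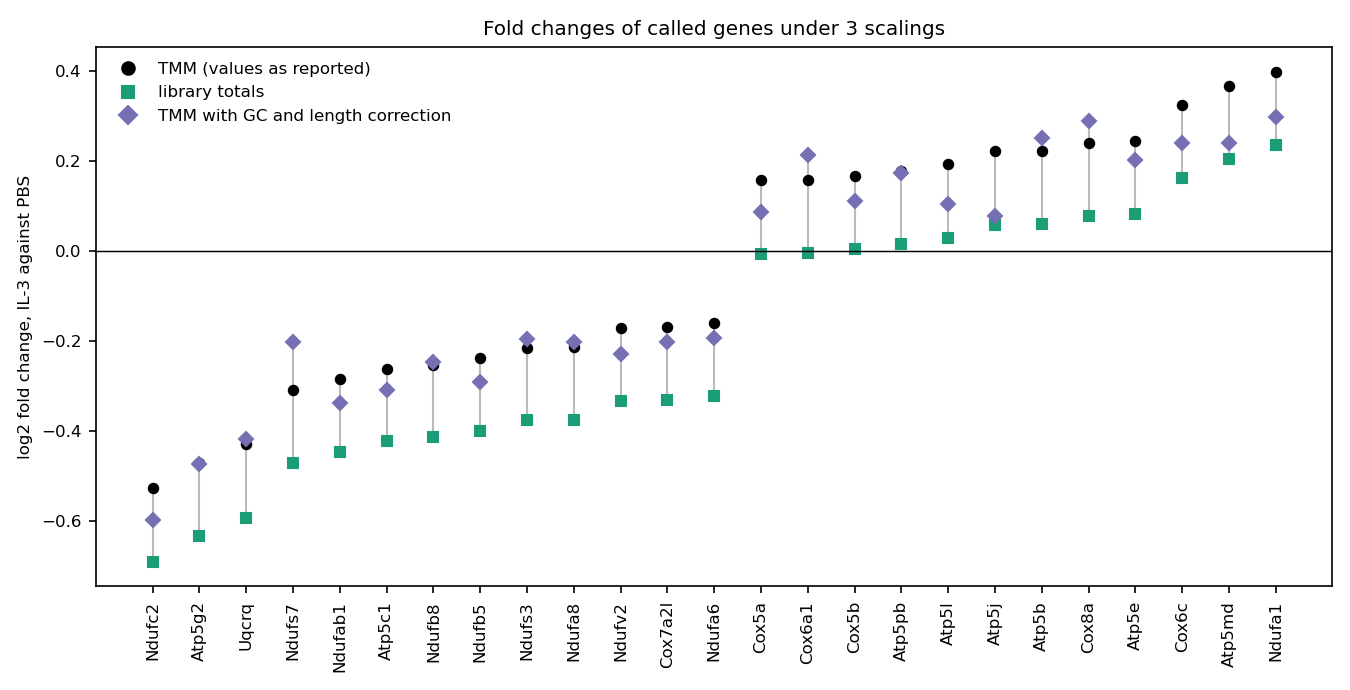
Log2 fold change of IL-3 against PBS (vertical axis) for 25 of the 26 called genes with TMM scaling (black circles), with scaling by library totals (green squares) and with TMM plus a correction for GC content and length (purple diamonds). All squares lie below the circles, Cox5a and Cox6a1 turn negative with library totals, and the genes called lower that are drawn stay below 0 under all 3.

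Leaving out a single library ended 10 of the 26 calls in at least 1 case, and the other 16 were kept without each library. Calls over all genes tested went down as well, from 3003 higher and 3372 lower to 2482 and 2883 without IL-3 replicate 2. Without PBS replicate 1, Atp5l, Cox5a, Cox5b, Cox6a1, Ndufa6 and Ndufs3 were lost, with adjusted p from 0.057 to 0.19. Without PBS replicate 2, Cox5a, Cox5b, Cox6a1, Cox7a2l, Ndufa6, Ndufa8 and Ndufv2 were lost (0.056 to 0.18). Without PBS replicate 3, Atp5e, Atp5l, Cox5a, Cox5b, Cox6a1, Cox7a2l, Ndufs3 and Ndufv2 were lost (0.053 to 0.13), which left 7 genes called higher. Without IL-3 replicate 1, Ndufa6 and Ndufv2 were lost (0.11 and 0.057), and Ndufa4 (0.26, adjusted p = 0.010) and Ndufv1 (-0.30, adjusted p = 0.024) were gained. Without IL-3 replicate 2, Atp5l, Cox5a, Cox5b, Cox6a1, Cox7a2l, Ndufa8, Ndufs3 and Ndufv2 were lost (0.079 to 0.18), and Ndufs8 (-0.24, adjusted p = 0.045) and Sdhc (-0.25, adjusted p = 0.023) were gained. Without IL-3 replicate 3, Atp5e, Atp5l, Cox5a, Cox5b, Cox6a1, Cox7a2l, Ndufa6, Ndufs3 and Ndufv2 were lost (0.053 to 0.22), which also left 7 genes called higher. Cox6c2 was gained without PBS replicate 1 (0.44, adjusted p = 0.036).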

How the data were processed

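Poly(A) RNA of 3 PBS and 3 IL-3 cultures of BMBAs was sequenced. The methods describe capture on oligo-dT beads, cDNA synthesis on them, amplification of the whole transcriptome and fragmentation. They describe no molecular identifiers for these libraries, so PCR copies count as reads and p-values measure the spread between these cultures. The authors trimmed reads with Cutadapt 3.4, mapped them with Bowtie2 to reference RNA and deposited raw counts per gene symbol. The build is GRCm38 in the methods and GRCm39 in the submitters' processing notes, and the source of RNA differs likewise (direct lysis or a column kit). How reads that match several genes were assigned is not stated in the methods or labels. Among other called genes, Ndufs3, Atp5pb, Cox7a2l and Cox5b share 17.9%, 14.3%, 13.8% and 11.9% of their 50-base stretches with other genes. Exons on the other strand cover 12.8% of the exon bases of Cox5a.

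Counts were analysed with edgeR 4.0.16 (R 4.3.3): filterByExpr, which removed 20368 symbols, TMM, and the quasi-likelihood F test with group as the only term, two-sided, with Benjamini-Hochberg adjustment over all genes tested. The SE was derived from the F value. The alternatives used DESeq2 1.42.0 and limma-voom 3.58.1, and the pipeline was tested on simulated data. Transcript lengths, GC contents and shared 50-base stretches came from GENCODE M21 (96.97% of symbols matched, and all 85 members), using the shortest principal transcript. Levels of genes were compared only per length, as counts per kilobase scaled to a common total. Values in every library are given for the 3 smallest adjusted p per direction in each complex, the highest level per length, calls against the majority of a complex and the isoform pairs. Cycs, Ndufa4, Cox7a2l and Atpif1 are named whatever their values, as are, of each other list, the 3 smallest adjusted p below 0.05. Other genes were named after their values were seen. Not every gene so selected is reported here. The members and lists were chosen with earlier results of these data known.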

Additional observations from a re-analysis of the deposited data

How the results depend on the processing

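Each group had 3 cultures, and at these depths Cox6b2 had the lowest level of the tested members and the largest SE (0.30). How depth or the number of cultures limits the calls was not tested. With library totals the members called higher and lower were 1 and 38, the medians of complexes I to V were -0.23, -0.32, -0.20, -0.074 and -0.055, and Atp5g3 (-0.077), Atp5g1 (-0.069), Cox7b (-0.074), Cox6a1 (-0.0054), Cox5a (-0.0078) and Ndufs1 (-0.13) changed sign. With the GC and length correction the medians of complexes I and IV were -0.11 and 0.0030, Cox4i1 (0.0030) and Atp5d (0.093) turned positive and Cox7b (-0.030) negative. With the longest transcripts in that correction, an alternative chosen after seeing the data, these medians were -0.097 and 0.0062, with Cox4i1 at 0.0044 and Atp5d at 0.080. At an adjusted p below 0.01 the counts were 7 and 9, and against a fold of 1.5 they were 0 and 0 (glmTreat in edgeR, with 0 at an unadjusted p below 0.05). Without each library in turn, the count called higher ranged from 7 to 13, the median of complex I from -0.088 to -0.017, that of complex II from -0.19 to -0.11, that of complex III from -0.045 to -0.026, that of complex IV from 0.041 to 0.14 and that of complex V from 0.082 to 0.12. Of genes that were not called, Cox6b1 ranged from -0.054 to 0.048, Ndufs1 from -0.011 to 0.052, Atp5g3 from 0.037 to 0.15, Atp5g1 from 0.045 to 0.15, Cox7b from 0.041 to 0.14, Cox4i1 from -0.079 to -0.013, Atp5d from -0.073 to -0.015 and Cox6b2 from -0.86 to -0.36. The cause of these shifts was not tested. Over the 64 genes named with a fold change and all settings, 851 values kept their direction and their side of the threshold, 75 lost the call, 20 gained one and 14 changed sign. The replicate number as a block gave 9 members called higher and 12 lower and kept 21 of the 26 calls. Samples of the same number did not deviate together (correlations of -0.0087, -0.016 and -0.022), so the block is not used elsewhere.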
